A study of Mus musculus with 8 samples.

Results

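The genes of mouse chromosome 14 were followed along the chromosome in 4 tumors grown from disseminated tumor cells (DTC tumors, DTC1 to DTC4) and 4 mammary tumors (T1 to T4). A gene was included when a probe set annotated with a single gene symbol mapped to chromosome 14 and its log2 value averaged at least 6 over the 8 arrays, and each gene was read from its probe set with the highest mean. This gave 361 genes out of 10581 over all chromosomes. A further 437 genes of chromosome 14 lay under the floor of 6. The genes nearest to the floor were *Xkr6* and *Nkiras1* on the inside, both at 6.02, and *Pdlim2* at 5.997 and *Prrxl1* at 5.97 on the outside. Chromosome 14 was selected on measured values of this same contrast, DTC against mammary tumors, and DTC4 was singled out the same way, so the group differences and the values of DTC4 are given as a description without a test of the chromosome.

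The DTC tumors arose after subcutaneous injection of 3000000 to 5000000 bone marrow cells of BALB-neuT mice into NSG mice, and the labels call the injected cells early disseminated tumor cells, whereas the study's text obtained such tumors from late donors. BALB-neuT mice carry an activated rat *Her2/neu* oncogene driven by the MMTV promoter, which is active in the mammary epithelium, and both groups share this transgene and strain. The labels trace the mammary tumors to TUBO, a cell line established from a BALB-neuT mammary cancer, and give 100000 injected tumor cells, whereas the methods speak of primary mammary tumors of BALB-neuT mice. By the labels, then, the 4 mammary tumors share 1 cell line, whose traits cannot be told apart from the tumor type. In both groups the injected cells were mixed with Matrigel and murine bFGF per the labels, and NSG hosts lack mature T, B and NK cells but keep macrophages, fibroblasts and vessels. Ages of the mice at the array samples were not given in the labels. RNA was taken from frozen tumor tissue, and the labels do not say if each tumor of a group grew in its own mouse. The p-values therefore cover only the spread among these 8 tumors, which may be technical.

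A chromosome is not a functional unit, and its genes serve most processes of the cell. Chromosome 14 of the mouse carries the retinoblastoma gene *Rb1*, the tumor suppressors *Bap1* and *Pbrm1*, the alpha and delta loci of the T cell receptor and the granzyme cluster, along with many genes of metabolism and protein handling. In tumor cells, transcript levels of neighbouring genes often move together when the number of copies of a chromosome or of a stretch of it changes, and cell mixture, promoters and transcript stability set the level of each single gene on top. The arrays measured RNA only, and the number of copies of chromosome 14 in these tumors was not measured here.

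Promoters are shown here for the 3 genes of the chromosome that passed the thresholds of the differential expression test, *2610528A11Rik*, *Cgrrf1* and *Clybl*. The promoter of *Ero1a* is shown as well. Its positive difference was the largest after that of *2610528A11Rik*, although its groups overlapped. Each runs from 250 bases before to 50 bases after the RefSeq start (GRCm38.p6), 5′ to 3′ on the strand of the gene, and capitals mark the letters ACGTG or their reverse complement CACGT, the core of the element that hypoxia-inducible factors bind.
2610528A11Rik, chr14:37110052-37110351, minus strand: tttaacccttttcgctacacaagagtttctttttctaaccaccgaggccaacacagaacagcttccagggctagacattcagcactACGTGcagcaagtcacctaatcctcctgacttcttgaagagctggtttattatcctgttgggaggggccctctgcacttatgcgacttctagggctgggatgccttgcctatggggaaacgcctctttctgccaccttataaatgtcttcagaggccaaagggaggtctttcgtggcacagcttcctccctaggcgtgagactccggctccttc
Ero1a, chr14:45318523-45318822, minus strand: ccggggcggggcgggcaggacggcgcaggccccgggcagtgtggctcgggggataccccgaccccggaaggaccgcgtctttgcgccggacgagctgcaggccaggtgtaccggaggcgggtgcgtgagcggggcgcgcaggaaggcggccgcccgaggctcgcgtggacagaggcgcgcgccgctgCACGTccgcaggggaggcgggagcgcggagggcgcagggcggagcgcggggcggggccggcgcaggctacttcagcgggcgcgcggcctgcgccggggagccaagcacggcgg
Cgrrf1, chr14:46831884-46832183, plus strand: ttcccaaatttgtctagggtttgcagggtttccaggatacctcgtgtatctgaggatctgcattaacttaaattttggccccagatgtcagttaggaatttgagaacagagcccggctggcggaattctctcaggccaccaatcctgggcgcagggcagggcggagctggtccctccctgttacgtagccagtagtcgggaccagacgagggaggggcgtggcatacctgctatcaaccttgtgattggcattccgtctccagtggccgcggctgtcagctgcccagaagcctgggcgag
Clybl, chr14:122181444-122181743, plus strand: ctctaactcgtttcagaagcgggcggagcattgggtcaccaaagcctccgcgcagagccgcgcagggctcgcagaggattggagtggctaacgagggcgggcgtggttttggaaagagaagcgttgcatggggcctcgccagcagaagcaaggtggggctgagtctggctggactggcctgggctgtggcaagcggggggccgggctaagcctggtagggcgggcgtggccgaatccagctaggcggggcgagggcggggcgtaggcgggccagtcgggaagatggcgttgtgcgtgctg

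The promoters of *2610528A11Rik* and *Ero1a* each held the marked letters 1 time and those of *Cgrrf1* and *Clybl* did not hold them. The unmarked form GCGTG stands in each of the printed promoters, so they are not told apart by the core as a whole. On either strand, 19.7% of 27025 promoters of this length held the letters, as did 72 of the 275 promoters found for genes of the chromosome (26.2%). Among the genes higher in DTC tumors 3 of 20 promoters held them, and among the genes whose 4 DTC tumors all lay below the 4 mammary tumors 51 of 158 (32.3%). A match is a description of the letters in this window and says nothing of binding.

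Most genes of chromosome 14 were lower in DTC tumors, along most of its length. The median log2 difference, DTC minus mammary, was -0.42 over the 361 genes, a fold of 0.746, and the interquartile range ran from -0.60 to -0.24. In all, the mean of the DTC tumors was the lower one for 327 genes (90.6%) and the higher one for 34. On the other chromosomes the median was -0.01 and 52.8% of 10220 genes were lower. The shift was broad and small: 232 genes lay between -0.75 and -0.25, and 8 were lower by 1 or more.

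Whether the tumors of a group agreed was read from each tumor on its own. Against the mean of the mammary tumors, the median of the chromosome was -0.46 in DTC1, -0.49 in DTC2, -0.45 in DTC3 and -0.27 in DTC4 (SD 0.099 over the 4 tumors). Against the mean of the DTC tumors, the medians of the mammary tumors were 0.52 in T1, 0.48 in T2, 0.31 in T3 and 0.40 in T4. No tumor crossed to the side of the other group. All 4 DTC tumors lay below all 4 mammary tumors in 202 genes, 56.0% of the chromosome against 10.2% of all genes, and all 4 lay above in 3 genes, 0.831% against 5.31% of all genes. Since the contrast chose the chromosome, nothing is read from these shares. No DTC tumor lay below all mammary tumors in 35 genes, 1 did in 31, 2 did in 27 and 3 did in 66.

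**Figure D1:**
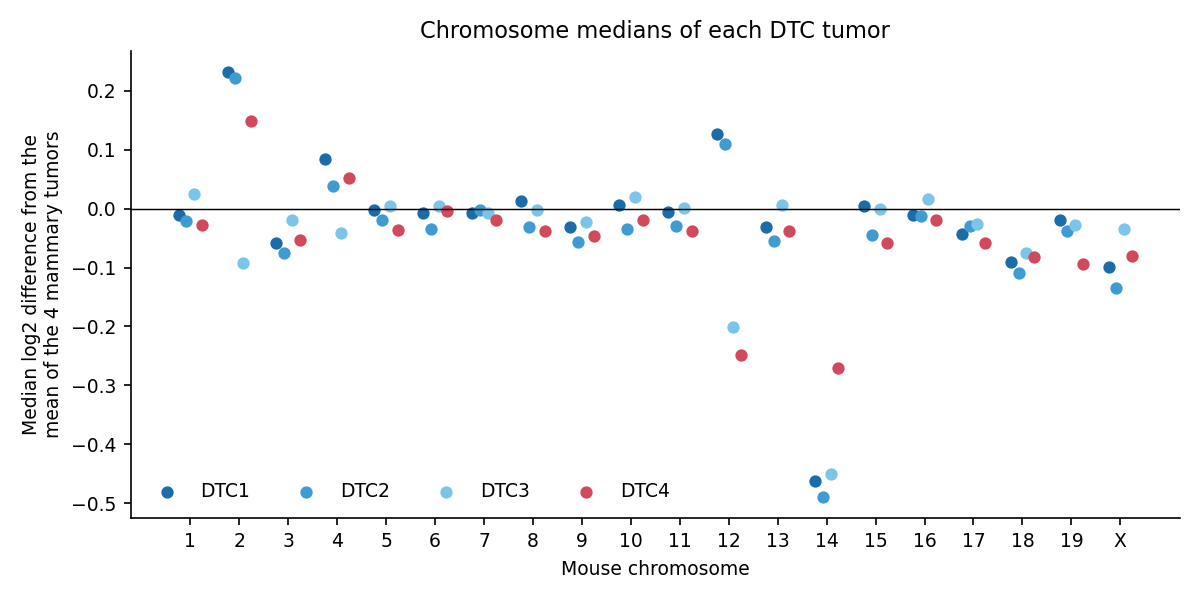
Median log2 difference of each DTC tumor from the mean of the 4 mammary tumors (vertical axis) over the expressed genes of each mouse chromosome (horizontal axis), with 1 point per tumor. On chromosome 14 the points stand at -0.46, -0.49, -0.45 and, for DTC4, -0.27, while on chromosomes 2 and 12 the DTC tumors fall on both sides of 0.

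Among the 19 other chromosomes, the median difference ran from -0.09 on chromosome 18 to 0.12 on chromosome 2, and the share of genes lower in DTC tumors from 27.1% on chromosome 2 to 68.0% on chromosome 18. The chromosomes most like it in size of shift within single tumors were chromosomes 2 and 12. On chromosome 2 (831 genes) the medians against the mammary mean were 0.23 in DTC1, 0.22 in DTC2, -0.09 in DTC3 and 0.15 in DTC4. On chromosome 12 (389 genes) they were 0.13, 0.11, -0.20 and -0.25. The DTC tumors thus fell on both sides of 0 on these chromosomes. All 4 medians were below 0 on 7 other chromosomes, for example at -0.09, -0.11, -0.08 and -0.08 on chromosome 18. Tumors also differed within the mammary group: on chromosome 14 the median of T3 against the mean of the other 3 mammary tumors was -0.15, while the same quantity ran from -0.14 to 0.16 over the other chromosomes.

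The level of a gene went with the size of its difference. In the 106 genes with a mean between 6 and 7 the median difference was -0.28 and 81.1% were lower in DTC tumors. In the 77 genes between 8 and 9 it was -0.51 and 98.7% were lower, and in the 16 genes at 10 or more it was -0.36. Of the 34 genes that were higher in DTC tumors, 20 had a mean under 7. Low values on arrays lie closer to the background signal, whose part in this pattern was not tested.

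Genes were put in order by their RefSeq starts and cut into 13 stretches of 10 Mb, each named here by its first and last gene. The medians of the stretches ran from -0.33 between *Bin3* and *Cnmd* (46 genes) to -0.57 between *Mbnl2* and *Itgbl1* (15 genes), the last stretch of the chromosome. The first stretch, from *1700110I01Rik* to *Fhit* (10 genes), stood at -0.51, and the largest, from *Olfr749* to *Shisa2* (90 genes), at -0.41. The sparsest, from *Diaph3* to *Tdrd3*, held 2 genes. No stretch had a median at or above 0. Cut into stretches of 5 Mb, the first held only *1700110I01Rik* and *2610042L04Rik*, 1 higher and 1 lower, at a median of -0.02, and the next, from *Abhd6* to *Fhit* (8 genes), stood at -0.64.

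A running median over 15 neighbouring genes gave 347 points, all below 0. It was lowest at *Ptprg* (-0.65), a receptor tyrosine phosphatase near the start of the order, and highest at *Syt15* (-0.24), a synaptotagmin. Each of the 4 DTC tumors was below 0 at all 347 points, with DTC4 between -0.51 at *Dad1* and -0.10 at *Mrpl57*. The longest row of lower genes without a break was 30, from *Acin1* to *Nop9*. The 34 higher genes were scattered: 32 stood alone between lower neighbours, and the only adjacent pair was *Gm6878* and *Cdca2*.

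**Figure D2:**
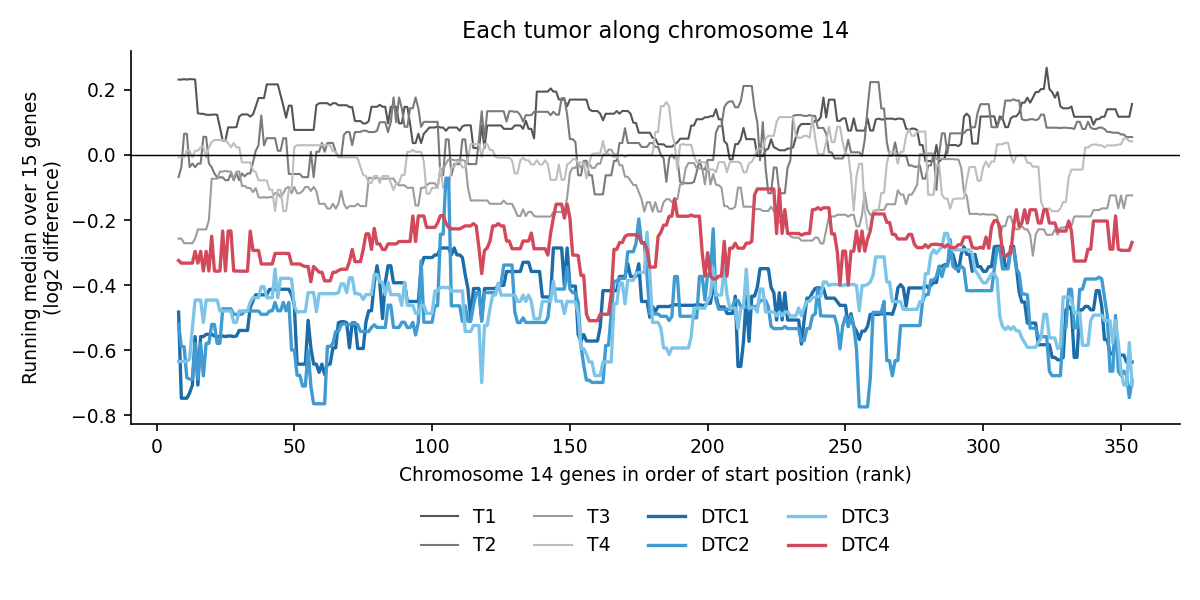
Running median over 15 neighbouring genes (vertical axis, log2) along the genes of chromosome 14 in order of start (horizontal axis, rank), with DTC tumors against the mean of the mammary tumors and each mammary tumor against the other 3. The lines of all 4 DTC tumors stay below 0 at all 347 points, and that of DTC4 lies above the other 3 at 332 of them.

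The study's methods name an empirical Bayes test with a false discovery rate correction after a filter on the interquartile range. Here limma was used, and a gene was called when it differed by 1 or more on the log2 scale with a Benjamini-Hochberg adjusted p up to 0.05, among probe sets with an interquartile range above 0.25. That filter left 278 of the 361 genes to test. Of these, 2 were called lower, where 13 of all 18877 probe sets were (0.0689%), and 1 was called higher, where 12 of all were (0.0636%). These genes, *Cgrrf1*, *Clybl* and *2610528A11Rik*, are also in the study's own list of top genes from this contrast, so the calls repeat published ones. Without the fold threshold the same fit gave 3 genes of the chromosome, against 0.143% of all probe sets. With p up to 0.05 before adjustment, 202 were lower, against 8.28% of all probe sets. Because the chromosome was chosen on this contrast, these counts describe it and do not test it. Leaving out DTC4 gave 4 genes called lower, where 22 of all 18331 probe sets tested were. Leaving out any other single tumor gave 0, where from 4 (without T3) to 24 (without DTC3) of all probe sets were called lower. With 1 probe set per gene at a mean of at least 6, fewer probe sets were tested, and 136 genes of the chromosome passed the adjusted p, where 560 of all 10581 did.

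*Cgrrf1*, a RING finger protein of the ubiquitin system, read 6.61, 6.70, 6.81 and 7.08 in DTC1 to DTC4 and 7.94, 8.02, 7.70 and 7.83 in T1 to T4 on the log2 scale. All DTC tumors were below all mammary tumors, and the difference of the means was -1.07 (standard error 0.166, adjusted p = 0.0427 from limma). *Clybl*, a mitochondrial lyase tied to vitamin B12 metabolism in humans, read 7.46, 7.51, 7.38 and 7.92 in DTC1 to DTC4 and 8.61, 8.67, 8.54 and 8.66 in T1 to T4. The mammary tumors differed among themselves by little (SD 0.060, n = 4), and the difference was -1.05 (standard error 0.166, adjusted p = 0.0451 from limma). In both genes DTC4 was the DTC tumor nearest to the mammary tumors.

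Among the genes without overlap the difference was most negative in *Prxl2a*, a peroxiredoxin-like redox protein. It read 7.29, 7.77, 8.43 and 8.50 in DTC1 to DTC4 and 9.26, 9.21, 9.41 and 9.81 in T1 to T4, a difference of -1.43 (standard error 0.275, adjusted p = 0.0812 from limma). The DTC tumors split into a lower pair, DTC1 and DTC2, and a higher pair, DTC3 and DTC4, so the value moved with the tumors left out, from -1.60 to -1.19. The other genes at the negative end had different roles. *Slc7a7*, a transporter of cationic amino acids, stood at -1.03, *Kcnk5*, a potassium channel, at -1.02, and *Slc22a17*, a receptor for lipocalin, at -1.0. *Txndc16*, a thioredoxin-domain protein of the endoplasmic reticulum, stood at -1.0, *Abhd4*, a lipid hydrolase, at -0.97, and *Cryl1*, a dehydrogenase of the gulonate pathway, at -0.96. *Dock9*, an exchange factor for Cdc42, stood at -0.96 with DTC values of 8.58, 8.31, 9.06 and 9.28 against 9.53 to 9.95 in the mammary tumors. None of these 7 passed the adjusted p in limma.

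*Cnmd*, chondromodulin, a glycoprotein known from cartilage, had the most negative group mean of all, at -2.24, but its groups overlapped. It read 5.72, 5.89 and 5.48 in DTC1 to DTC3, 8.40 in DTC4, and 8.86, 8.41, 8.998 and 8.19 in T1 to T4. DTC4 thus lay within the range of the mammary tumors, and without DTC4 the difference was -2.92. DTC1 to DTC3 lay under the floor of 6, so *Cnmd* passed it through DTC4 and the mammary tumors, and its place among the lower genes is no support. Its neighbours in the order, *Sugt1* (-0.66) and *Diaph3* (-0.41), had DTC4 above the mean of DTC1 to DTC3 by 0.15 and 0.55.

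The gene most against the trend was *2610528A11Rik*, known as a secreted peptide. It read 10.56, 10.16, 9.80 and 10.09 in DTC1 to DTC4 and 6.46, 7.25, 8.37 and 8.33 in T1 to T4. The lowest DTC tumor lay above the highest mammary tumor, and the means differed by 2.55, a fold of 5.84 (limma standard error 0.388, adjusted p = 0.0391). It was no longer called with no interquartile filter, in the fit blocked on replicate number, or without DTC1, DTC2, DTC4 or T2, when 0 genes of the chromosome were called higher. The spread was in the mammary tumors (SD 0.921, n = 4) more than in the DTC tumors (SD 0.312, n = 4). Its neighbours were *Ccser2* at -0.46 and *Ghitm* at -0.75, both with all DTC tumors below all mammary tumors.

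*Ero1a*, the oxidase that drives disulfide formation in the endoplasmic reticulum and is known to be induced by low oxygen, was the only other gene higher by more than 0.5. It read 11.18, 10.59, 10.92 and 11.47 in DTC1 to DTC4 and 9.81, 9.91, 10.22 and 10.61 in T1 to T4. The groups touched, since DTC2 lay just below T4, and the difference of 0.90 (standard error 0.238, adjusted p = 0.15 from limma) did not pass the adjusted p. Another, dimmer probe set of the gene differed by 0.77, with DTC tumors between 7.85 and 8.40 and mammary tumors between 6.93 and 7.61, without overlap.

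These genes sat among the most negative ones. In the order of starts, *2610528A11Rik* was gene 110 of the chromosome, *Prxl2a* 114, *Gm2959* 115, *Txndc16* 116 and *Ero1a* 117, at 2.55, -1.43, 0.45, -1.0 and 0.90. *Cgrrf1*, at -1.07, was gene 125. Next to *Ero1a* followed *Psmc6*, a subunit of the proteasome, at -0.36, and *Gnpnat1*, an enzyme of the hexosamine pathway, at -0.52. Direct neighbours in the order thus stood on opposite sides of 0 here and differed by more than 1 log2 unit.

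**Figure D3:**
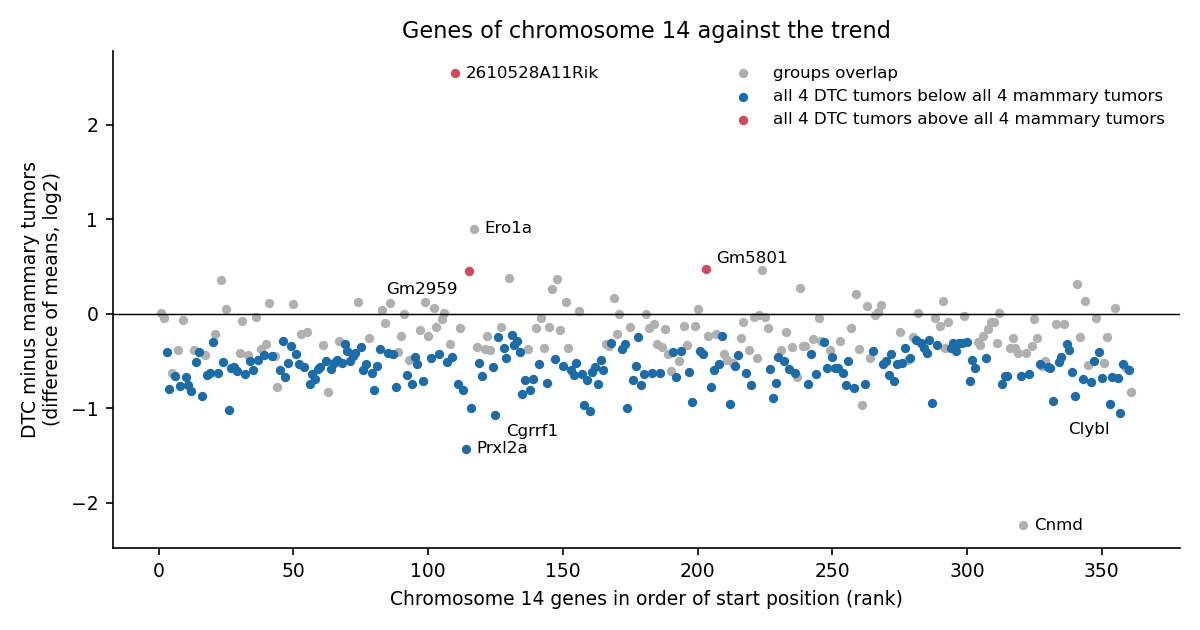
Difference of the group means (vertical axis, log2, DTC minus mammary tumors) of each of the 361 genes in order of start (horizontal axis, rank), coloured by whether the 4 DTC tumors all lay below, all lay above or overlapped the 4 mammary tumors. The points fill a band around -0.42, with *2610528A11Rik* at 2.55 and *Ero1a* at 0.90 above it and *Cnmd* at -2.24 below.

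Besides *2610528A11Rik*, the 4 DTC tumors lay above the 4 mammary tumors in *Gm5801* (0.48) and *Gm2959* (0.45). *Gm2959* read 7.24, 6.997, 7.02 and 7.12 in DTC1 to DTC4 and 6.65, 6.62, 6.63 and 6.67 in T1 to T4. Both names belong to families of near-identical predicted genes, so their probes may read several loci and these values are uncertain. The remaining genes of the 10 highest overlapped between the groups. They were *Phf11b* (0.46), a PHD finger gene, *Lgals3* (0.38), galectin-3, *Ndrg2* (0.37), *Nid2* (0.36), nidogen-2 of the basement membrane, *Gpc6* (0.32), a glypican, and *Mir15a* (0.27). All of these 6 had a mean under 8. *Mir15a* was not tested, since its interquartile range was under the filter, and none of the other 5 passed the adjusted p in limma. A further gene, *Hnrnpc*, an abundant RNA-binding protein chosen here after its values were seen, stood at 0.13 at a mean of 9.56, with DTC tumors between 9.57 and 9.69 and mammary tumors between 9.39 and 9.79.

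*Mir15a* encodes a microRNA of the miR-15/16 seed family and lies within its host transcript *Dleu2*. Its mature arms are shown because host and microRNA stood on opposite sides of 0, with the seed, bases 2 to 8, in capitals (RefSeq, GRCm38.p6).
mmu-miR-15a-5p: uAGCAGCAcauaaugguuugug
mmu-miR-15a-3p: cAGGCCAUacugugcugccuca

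The probe set named *Mir15a* read 6.46, 6.17, 6.38 and 6.92 in DTC1 to DTC4 and 6.28, 6.32, 5.94 and 6.30 in T1 to T4, so that the groups overlapped and the values lay near the floor. The probe set named *Dleu2* read 6.21, 6.46, 6.61 and 7.26 in DTC1 to DTC4 and 7.52, 7.40, 6.88 and 7.42 in T1 to T4, a difference of -0.67. DTC4 was the highest DTC tumor in both. An array for long RNA does not separate the mature arms from the precursor, and the level of either arm was not measured.

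The genes were then grouped by role, from lists written with earlier results of these data known. All DTC tumors lay below all mammary tumors in 56.0% of the chromosome's genes and in 10.2% of all genes. Counts of genes without overlap in the lists below stand beside these shares, and nothing about a role is read from them. Genes of most cell functions shared the direction of the chromosome. Of the 17 expressed mitochondrial genes, all were lower in DTC tumors, with a median of -0.53, and 14 had no overlap. Besides *Clybl* they included *Micu2* (-0.75), a regulator of the calcium uniporter, and *Vdac2* (-0.67), a channel of the outer membrane. *Vdac2* read 9.12, 8.96, 9.04 and 9.44 in DTC1 to DTC4 and 10.06, 9.85, 9.60 and 9.73 in T1 to T4.

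The secretory pathway and lysosome list had the most negative median, -0.67 over 9 genes, with 8 lower and without overlap and *Ero1a* as the exception. *Dnajc3*, a co-chaperone of the endoplasmic reticulum that restrains the unfolded protein response, stood at -0.72, and *Dad1*, a subunit of the oligosaccharyltransferase, at -0.63. The lysosomal protease *Ctsb* read 11.26, 10.99, 11.18 and 11.38 in DTC1 to DTC4 and 11.66, 11.40, 11.66 and 11.78 in T1 to T4, a difference of -0.42. Its highest DTC tumor and lowest mammary tumor differed by little.

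Of 11 genes of the cytoskeleton and of adhesion, 10 were lower, 8 of them without overlap, at a median of -0.58. Besides *Dock9*, the actin-bundling protein gene *Dmtn* stood at -0.94. *Dmtn* read 5.35, 5.80, 5.80 and 6.09 in DTC1 to DTC4 and 6.51 to 6.83 in the mammary tumors. It thus passed the floor through the mammary tumors, and its place among the lower genes is no support. *Plau*, the urokinase gene, was the exception at 0.11, with overlap. The 19 signalling genes were all lower (median -0.50), 13 without overlap. *Spry2*, which restrains receptor tyrosine kinase signalling, read 7.89, 7.58, 7.63 and 8.13 in DTC1 to DTC4 and 8.77, 8.44, 8.66 and 8.85 in T1 to T4, a difference of -0.87. *Il17rd*, another restrainer of growth factor signalling, stood at -0.83 but overlapped, since T4 read 7.17 and DTC4 7.38.

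All 20 genes of chromatin and transcription were lower (median -0.48), 11 of them without overlap. *Thrb*, the thyroid hormone receptor beta, stood at -0.65 and *Nr1d2*, a nuclear receptor of the circadian clock, at -0.63. *Pbrm1*, a subunit of a chromatin remodelling complex, stood at -0.55, with DTC tumors between 8.66 and 8.89 and mammary tumors between 9.12 and 9.53. *Bap1*, a deubiquitinase, stood at -0.42, without overlap. *Rb1*, the retinoblastoma gene, was nearly even at -0.08. It read 8.67, 8.64, 9.39 and 8.27 in DTC1 to DTC4 and 8.72, 8.80, 9.08 and 8.69 in T1 to T4. DTC3 lay above all mammary tumors and the other 3 DTC tumors below them, DTC4 lowest, and without DTC4 the difference was 0.07. *Pbrm1*, *Bap1* and *Rb1* were named here for their known roles and after their values were seen.

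Of 11 genes of the proteasome and ubiquitin, all were lower (median -0.41), 7 without overlap. They were led by *Sugt1* (-0.66), a co-chaperone of ubiquitin ligases, and *Ube2e2* (-0.63), a conjugating enzyme. In RNA processing and translation, 16 of 17 were lower (median -0.30), 8 without overlap. The arginine methyltransferase *Prmt5* stood at -0.59 and the splicing regulator *Mbnl2* at -0.50. *Rpl15*, a protein of the large ribosomal subunit, stood at -0.30 and read 12.11 to 12.31 in DTC tumors against 12.47 to 12.62 in mammary tumors. All 7 genes of DNA repair and telomeres were lower (median -0.36), 2 without overlap, with *Parp4* at -0.78 and *Top2b*, a topoisomerase, at -0.44.

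Genes of cell division lay closer to 0. Of 13, 12 were lower, at a median of -0.23, and 2 had no overlap. *Diaph3*, a formin, read 7.12, 7.32, 7.15 and 7.74 in DTC1 to DTC4 and 7.83, 7.70, 7.56 and 7.89 in T1 to T4, and *Mzt1*, a part of the gamma-tubulin complex, stood at -0.34. DTC4 was above the mean of DTC1 to DTC3 in 12 of these 13 genes, by a median of 0.40. Over all genes of the chromosome it was above that mean in 81.4%, by a median of 0.21. The median was larger in the epithelial list (0.55) and the cytoskeleton and adhesion list (0.44). In the other lists of more than 1 gene it ran from 0.03 to 0.37. Against the mammary mean the cell division list stood at -0.31, -0.22, -0.31 and -0.02 in DTC1 to DTC4.

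**Figure D4:**
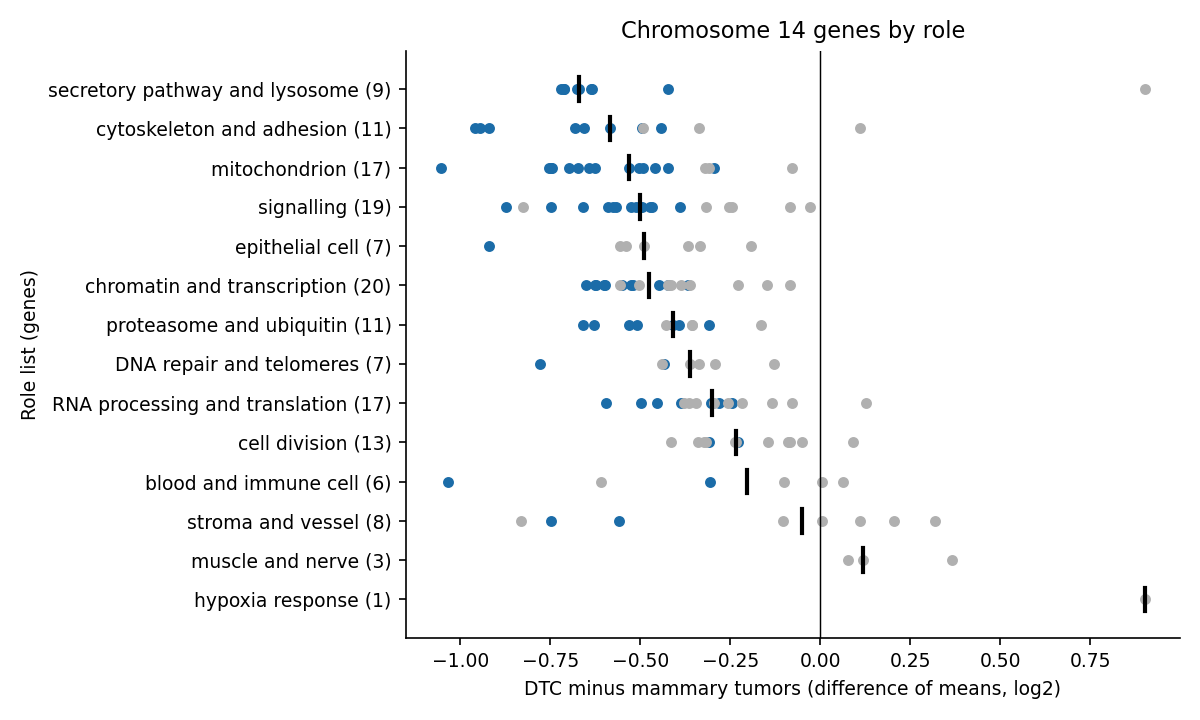
Difference of the group means (horizontal axis, log2, DTC minus mammary tumors) of the genes of each role list (vertical axis, number of genes in parentheses), in blue where all 4 DTC tumors lay below all 4 mammary tumors and in grey otherwise, with a bar at the median of the list. Lists of the cell's basic functions lie left of 0, and the 8 stroma and vessel genes spread on both sides around -0.05.

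Lists of genes tied to particular cell types were more mixed. Of the 8 stroma and vessel genes, 4 were lower and 4 higher, at a median of -0.05, which was -0.23 without DTC4. *Itgbl1*, an integrin-like secreted protein, stood at -0.83, and *Scara5*, a ferritin receptor, at -0.75. *Mmp14*, a membrane metalloprotease, stood at -0.56, with DTC tumors between 9.62 and 9.95 and mammary tumors between 10.29 and 10.41. Of the 22 blood and immune genes on the chromosome, 6 passed the floor, 4 lower and 2 higher, led by *Slc7a7* and by *Irf9* (-0.61), a transcription factor of the interferon response. The 7 epithelial genes were all lower (median -0.49), but *Lmo7* (-0.92), of cell junctions, was the only 1 without overlap, and *Klf5*, an epithelial transcription factor, stood at -0.56 with DTC3 at 9.06 inside the mammary range. The 3 muscle and nerve genes that passed the floor were all higher, led by *Ndrg2* (0.37) and *Tnnc1*, cardiac troponin C, at 0.12, and all overlapped.

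In bulk tumors, fewer cells of a type and less RNA per cell cannot be told apart, so marker genes of cell types over all chromosomes were read beside these lists. The 10 epithelial tumor cell markers averaged 9.50 to 9.61 in DTC tumors and 9.51 to 9.65 in mammary tumors. The 10 fibroblast markers averaged 8.28 to 8.59 in DTC tumors and 8.67 to 8.94 in mammary tumors, and 2 of the 10 were higher in DTC tumors. The 12 macrophage markers averaged 8.53 to 8.85 and 8.25 to 8.74, with 9 higher, and the 10 endothelial markers 6.61 to 6.79 and 6.50 to 6.81, with 5 higher. Only 5 of the 10 endothelial markers reached a level of 6. The average of the epithelial markers was thus alike between groups, with 4 of the 10 higher in DTC tumors. *Epcam* averaged 11.25 in DTC and 11.63 in mammary tumors, and *Krt18* 11.61 and 11.32. The average of the fibroblast markers was lower in DTC tumors without overlap, but unevenly over its genes. *Lum* averaged 7.19 in DTC and 8.42 in mammary tumors and *Dcn* 9.36 and 10.21, while *Col1a1* averaged 10.19 and 10.16. Of the muscle, neutrophil and lymphocyte markers 1, 1 and 0 reached a level of 6, 1 of the 6 matched fat cell markers did, and no red cell marker was matched. The part of these mixtures in the chromosome's values was not tested.

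DTC4 was shifted less than the other DTC tumors. Its fold at the median of the chromosome was 0.83 of the mammary mean, against 0.726, 0.713 and 0.732 in DTC1 to DTC3. It was the highest of the DTC tumors in 226 genes (62.6%), where on the other chromosomes it was in 23.8%, and the lowest in 30. DTC4 lay above the mean of DTC1 to DTC3 in 294 genes (81.4%), by a median of 0.21, while over the other chromosomes this quantity ran from -0.24 on chromosome 12 to 0.04 on chromosome 2. These values use no mammary tumor, but DTC4 had been singled out beforehand and they support nothing.

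The smaller shift was spread along the chromosome. DTC4 was above the mean of the other 3 in the median of all 13 stretches, from 0.02 over the 6 genes between *Gpc6* and *Dnajc3* to 0.49 over the 2 genes between *Diaph3* and *Tdrd3*. In the largest stretch, from *Olfr749* to *Shisa2*, it was above by 0.14. In the last stretch, from *Mbnl2* to *Itgbl1*, it was above by 0.42. Even so, DTC4 was below all 4 mammary tumors in 232 genes, against 284, 283 and 292 for DTC1 to DTC3, and in 49 genes DTC1 to DTC3 were below all mammary tumors and DTC4 was not.

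A few genes set DTC4 apart by much more than the median of 0.21. The most positive were *Cnmd*, above by 2.71, and *Phf11d*, by 2.12, and the most negative *Sh2d4b*, an SH2-domain adaptor, at -1.03, and *Cmtm5*, a MARVEL-domain protein, at -0.63. *Sh2d4b* read 6.87, 6.91, 6.93 and 5.87 in DTC1 to DTC4 and 6.68 to 6.95 in the mammary tumors, and *Cmtm5* read 6.25, 6.36, 6.31 and 5.67 in DTC1 to DTC4 and 6.63 to 7.06 in the mammary tumors. In both, DTC4 alone lay far below the rest of its group.

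Other genes of this kind were picked after their values were seen. *Clu*, the secreted chaperone clusterin, read 8.25, 8.05, 9.67 and 10.77 in DTC1 to DTC4 and 9.08 to 10.04 in the mammary tumors. Next to it in the order, *Scara3*, a scavenger receptor, read 5.75, 5.95, 6.20 and 7.88 against 6.11 to 6.31, and *Ephx2*, the soluble epoxide hydrolase, 6.25, 6.28, 5.45 and 7.04 against 6.73 to 7.49. These 3 adjacent genes were thus all highest in DTC4 among the DTC tumors, and *Clu* and *Scara3* lay above every mammary tumor there. *Scara3* counts among the higher genes through DTC4 alone, since its difference of 0.21 became -0.27 without that tumor.

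*Kcnma1*, the pore of a calcium-activated potassium channel and 1 of the brightest probe sets of the chromosome, read 12.84, 12.40, 12.50 and 13.88 in DTC1 to DTC4 and 12.61 to 13.11 in T1 to T4. Its difference of 0.10 became -0.23 without DTC4. Another probe set of the gene averaged 4.91 and did not show DTC4 apart, at 5.28 beside 5.29 in DTC3. *Gjb2*, a connexin of epithelial gap junctions, read 6.86, 7.56, 7.17 and 8.58 against 7.87 to 8.24, and *Cldn10*, a claudin of tight junctions, 7.35, 7.76, 6.92 and 8.60 against 7.51 to 8.64. Both were higher in DTC4 than in DTC1 to DTC3. The epithelial markers over all chromosomes differed by 0.063 between DTC4 and the mean of the other DTC tumors.

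A few genes, *Phf11d*, *Irf9*, *Epsti1* and *Psme1*, known as background to respond to interferon, are shown here for their high values in DTC4 and in T4, and *Epsti1* and *Psme1* were picked for them after they were seen. *Phf11d* read 6.20, 5.67, 5.02 and 7.75 in DTC1 to DTC4 and 5.29, 5.62, 5.48 and 8.40 in T1 to T4, so that it passed the floor through DTC4 and T4. *Epsti1* read 7.38, 7.78, 6.61 and 8.63 in DTC1 to DTC4 and 7.35, 7.22, 7.11 and 8.69 in T1 to T4. *Irf9* read 8.40, 8.35, 7.21 and 9.02 in DTC1 to DTC4 and 8.88, 8.85, 8.30 and 9.39 in T1 to T4. In each, DTC4 and T4 were the highest tumors of their groups and DTC3 the lowest DTC tumor, and *Psme1*, an activator of the proteasome, had DTC4 and T4 highest as well (10.02 in DTC4 and 10.31 in T4, with 9.15 to 9.35 in DTC1 to DTC3 and 9.64 to 9.66 in T1 to T3). Macrophage markers over all chromosomes averaged 0.30 more in DTC4 than in DTC1 to DTC3, in 11 of 12 genes, but in T4 they were the lowest of the mammary tumors at 8.25. Their part in these values was not tested.

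**Figure D5:**
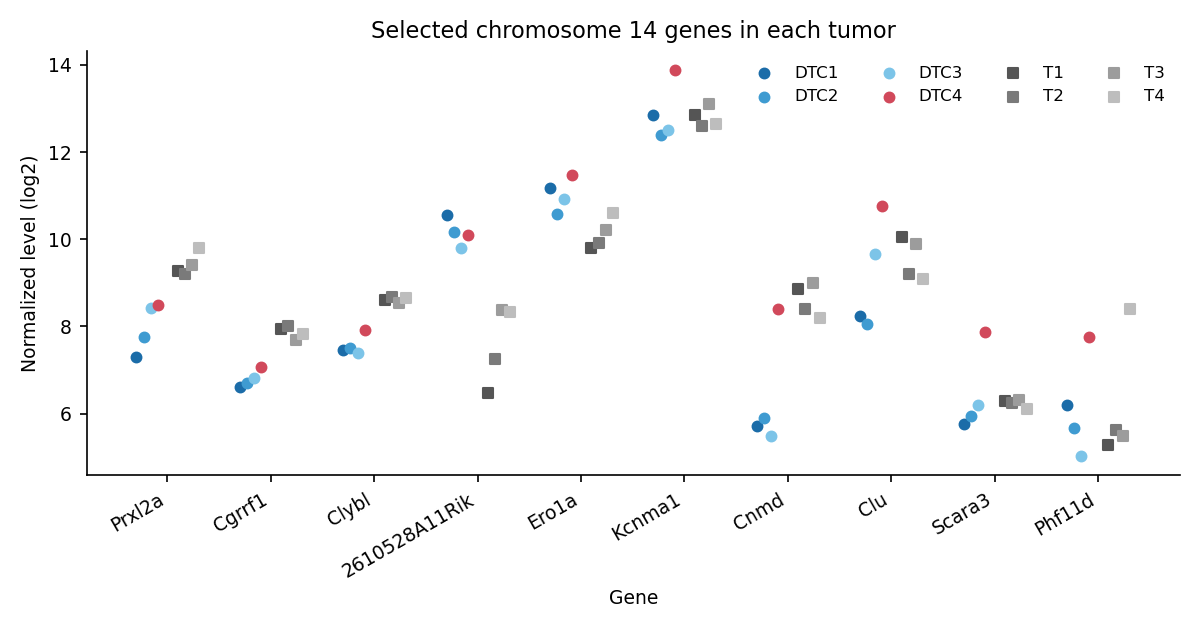
Normalized log2 level (vertical axis) of 10 genes (horizontal axis) in each tumor, as circles for DTC tumors and squares for mammary tumors. *Prxl2a*, *Cgrrf1* and *Clybl* separate the groups downward and *2610528A11Rik* upward, while in *Cnmd*, *Clu*, *Scara3* and *Kcnma1* DTC4 stands above the other DTC tumors, and in *Phf11d* DTC4 (7.75) and T4 (8.40) stand above the rest.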

How the data were processed

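RNA of 4 DTC tumors and 4 mammary tumors was hybridized to Affymetrix MoGene 2.0 ST arrays, 1 per tumor. The authors normalized the arrays by the sketch-quantile method of oneChannelGUI, and the deposited values are on the log2 scale, 1 for each of 41345 probe sets. The labels and the methods differ in the RNA amount per array, and how probes were summarized is not given in the sources used here.

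Genes were named by the platform annotation, which as used here lists no chromosomes, so chromosome and gene order came from a RefSeq table (GRCm38.p6). Of 23521 probe sets with 1 gene symbol, 23328 were matched by gene ID, 149 by symbol and 43 by synonym, and 1 was not matched. The 1820 probe sets with several symbols were left out. The files name no genome build, so positions were used for order and for stretches of 10 Mb only. Promoter and microRNA sequences are RefSeq's.

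Probe sets with an interquartile range above 0.25 (18877) were fitted by lmFit and eBayes (limma 3.58.1, R 4.3.3) with Benjamini-Hochberg adjustment, after a check on simulated data. With 8 arrays their number limits the precision. All other values are descriptions computed in Python 3.11.15. The chromosome, its genes and the role lists were chosen with earlier results of these data known. The genes named are the 10 most negative and the 3 positive without overlap, the 10 most positive whatever the overlap, the 2 members of each list with the largest absolute difference, those nearest the floor, those in which DTC4 differed most, and *Cgrrf1*, *Clybl*, *2610528A11Rik* and *Ero1a*. Genes chosen later are *Kcnma1*, *Clu*, *Gjb2*, *Scara3*, *Cldn10*, *Epsti1*, *Psme1*, *Rb1*, *Hnrnpc*, *Pbrm1*, *Bap1*, *Ctsb*, *Dad1*, *Vdac2*, *Mmp14*, *Plau*, *Rpl15*, *Ephx2* and *Dleu2*, and neighbours in the order. The main fit did not pair the tumors by replicate number. Alternatives changed the floor, the normalization, the probe set rule, the interquartile filter, the variance model, the replicate block and the tumors included.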

Additional observations from a re-analysis of the deposited data

Results flagged for a closer look

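Single tumors that stood far from the other 3 of their group were looked for in 138 groups of 4 tumors, from the genes named above, and 11 were found. Chance gives about 1 in 20 groups, and some of these genes were named because DTC4 stood apart in them. DTC4 was the tumor in *Cnmd* (8.40, with the nearest DTC tumor at 5.89), *Sh2d4b* (5.87, nearest 6.87) and *Cmtm5* (5.67, nearest 6.25). T4 was the tumor in *Phf11d* (8.40, nearest 5.62), *Phf11b* (8.55, nearest 7.23), *Epsti1* (8.69, nearest 7.35) and *Psme1* (10.31, nearest 9.66). DTC2 was low in *Abhd4* (7.98, nearest 8.51), T3 was low in *Mir15a* (5.94, nearest 6.28), T2 was low in *Dad1* (7.42, nearest 7.97) and T2 was high in *Hnrnpc* (9.79, nearest 9.42).

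Over all genes of the chromosome, 37 of 722 groups had such a tumor (5.12%), about the share chance gives, so the counts per tumor are no result. DTC4 and T4 each stood apart in 9 genes, against 2, 5 and 2 for DTC1 to DTC3 and 4, 3 and 3 for T1 to T3. The chromosome median of DTC4 had a gap of 0.827 of the range over the DTC tumors, just under Dixon's critical value.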

How the results depend on the processing

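The median difference of the chromosome stayed negative in every setting tried. It was -0.12 with no floor on the mean level, and between -0.48 and -0.40 with 1 tumor left out. The share of lower genes was 83.5% with a floor of 5, 96.8% with a floor of 8 and 65.9% with no floor, and 88.4% to 91.1% with 1 tumor left out. The difference of DTC4 from DTC1 to DTC3 was 0.18 with a floor of 5, 0.24 with a floor of 8, 0.098 with no floor and 0.18 with each array centred on its median, and 0.19 to 0.22 with 1 other tumor left out. The stretches with at least 10 genes had medians between -0.57 and -0.32 in windows of 5 Mb.

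The counts of limma calls depended on the setting, and the cause was not tested unless the setting itself tests fewer probe sets. Genes called lower were 0 with an interquartile range above 0.5, 7 with 1 probe set per gene (41 of all 10581) and 1 with cyclic loess. They were 5 with a robust trended variance (30 of all 18877), and 0 to 4 with 1 tumor left out (4 to 24 of all probe sets). Genes called higher were 0 with no interquartile filter and 0 to 1 with 1 tumor left out. Genes at the adjusted p were 1 with an interquartile range above 0.5 (15 of all 5068 probe sets tested), 136 with 1 probe set per gene (560 of 10581) and 12 with a robust trended variance (80 of 18877), and 0 to 4 with 1 tumor left out. With the replicate number as a block the 3 counts were 0, 0 and 0, and with p up to 0.05 before adjustment the block left 191 genes lower and 4 higher. Same-numbered tumors deviated together with correlations of 0.007, 0.015, 0.168 and 0.194. Between tumors of different numbers the correlations ran from -0.182 to 0.047. Whether the numbers pair the tumors cannot be told from these values. Of the values for named genes and lists, 736 stayed within the spread between tumors and 2 did not. Leaving out 1 tumor cannot move a gene's difference by more than that spread, so staying within it is no support. Changes of sign in genes with overlap, as in *Scara3* without DTC4, were counted as staying. The median of the stroma and vessel list was -0.23 without DTC4. That of the hypoxia list, which then held more than *Ero1a*, was 0.29 with a floor of 5. Among the values for the chromosome itself, judged by the spread or, for limma counts, by their ratio, 58 stayed and 38 moved.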
